A study of Mus musculus with 50 samples.

Results

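The interaction between a tag of chromosome 4 and a tag of chromosome 6 was examined in liver RNA from a mouse cross that segregates A/J and C57BL/6J alleles on just these chromosomes. Each of the 50 libraries was placed in 1 of 4 classes chosen by its own values of 2 transcripts, Gm13394 (below 10 or not) and Eno1b (below 3 or not). All 50 of the 50 libraries in the series entered, 11 with both tags low, 18 with only Gm13394 high, 7 with only Eno1b high and 14 with both tags high. Because expression values chose the classes, the tags' own levels are given below as a description and carry no test.

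The labels describe adult male F2 mice, of C57BL/6J background, in which chromosomes 4 and 6 are substituted by those of A/J, whereas the methods of the study describe N2 offspring of a backcross between chromosome substitution strains, a few weeks old and fasted overnight before a lobe of the liver was taken. Every mouse was thus homozygous C57BL/6J outside these chromosomes, and no treatment separated the animals. The study compared male and female mice of the cross and ran its scans with and without sex as a covariate. No model here held sex. The labels assign no genotype to a library, and which parental allele a high tag stands for was not determined here. The 50 libraries carry 48 distinct animal numbers, since 2 numbers stand on 2 libraries each, and both libraries of each such pair fell in the same class. The methods count fewer mice than there are libraries. All 50 libraries were kept. The study's aim was to find pairs of loci on these chromosomes that act on traits and expression non-additively.

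Epistasis means that the effect of an allele at one locus depends on the allele at another. In a backcross every animal carries, at each segregating locus, either both copies from the recurrent strain or 1 from each strain, and a pair of loci therefore gives 4 genotype combinations. An interaction then appears as a difference of differences, with the effect of one locus larger, smaller or reversed in the animals that carry the other allele at the second locus. Recombination in the parents separates a marker from loci farther along its chromosome, so that a tag near one end reports on that end better than on the rest.

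Neither tag lies on the chromosome it follows. Gm13394 (ENSMUSG00000083773) is a processed pseudogene of the glycolytic gene Gapdh on chromosome 2 (GRCm38 chr2:28933610-28934609, minus strand), while Gapdh itself lies on chromosome 6 (chr6:125161715-125166467, minus strand). Of the 999 coding bases of Gapdh, 998 (99.9%) are identical in Gm13394, and the single difference is A346C, counted from the first base of the coding sequence, with the Gapdh base first. The stretch around this base, coding bases 316 to 375, is shown because it is all that separates the tag from its parent gene in coding sequence. In Gapdh it spans 2 exons (chr6:125162987-125163144) and in Gm13394 it is continuous (chr2:28934235-28934294). Both are GENCODE transcripts on GRCm38, 5′ to 3′, and the capital marks the base that differs.
Gapdh: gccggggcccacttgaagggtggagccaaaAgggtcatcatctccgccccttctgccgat
Gm13394: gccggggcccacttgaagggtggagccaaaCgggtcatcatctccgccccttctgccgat

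Eno1b (ENSMUSG00000059040) is likewise a copy, outside chromosomes 4 and 6, of Eno1 on chromosome 4 (chr4:150236721-150248879), which encodes another glycolytic enzyme, enolase. Of the 31-base stretches in the Eno1b transcript, 87.9% also occur in Eno1, against 96.8% of those in Gm13394 that occur in Gapdh. Reads of such copies and of their parent genes cannot be fully told apart. Both tags were therefore used to class libraries, and no interaction is read in them or their parent genes. They remain among the genes fitted and counted below.

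The tag values fell into separate groups. In the classes with low Gm13394, its values ran from 0.160 to 1.05 with both tags low and from 0.334 to 0.945 in 6 of the 7 libraries with only Eno1b high. Library 24, in the class of 7, had a value of 7.94 and was the member nearest the threshold of 10. In the 32 libraries with high Gm13394 the values ran from 84.4 to 163. Eno1b lay between 0 and 0.405 in its 29 low libraries and between 19.4 and 42.8 in its 21 high libraries. The values are normalized CPM (reads scaled to a common library size), in which 1 read was worth between 0.0317 and 0.0864 depending on the library. Thresholds placed in the widest gap of each tag gave the same classes.

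**Figure D1:**
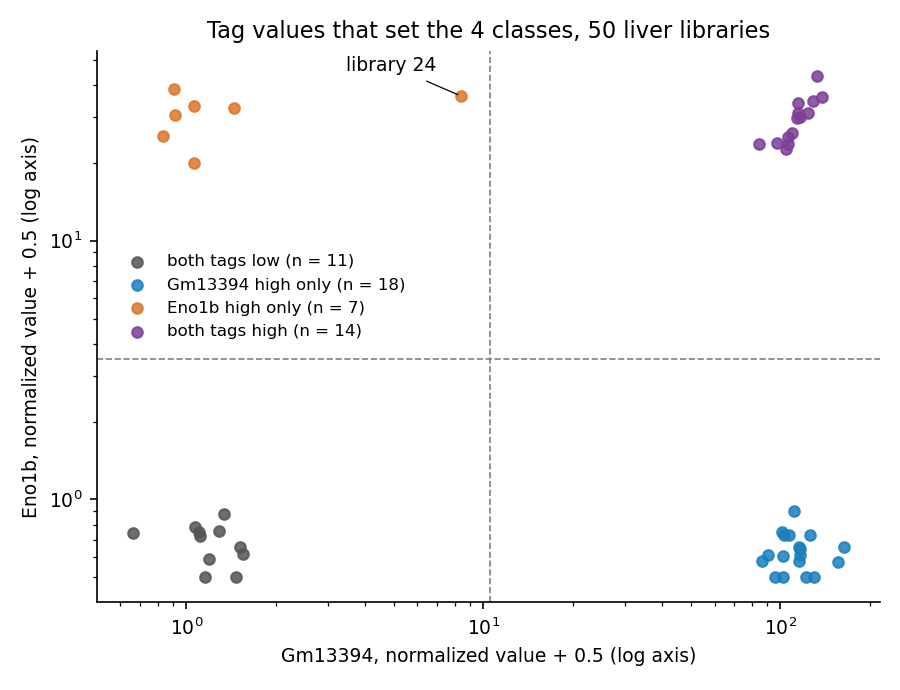
Gm13394 and Eno1b in each of 50 liver libraries, as normalized value + 0.5 on log axes, coloured by class; dashed lines mark the thresholds of 10 and 3. The 4 classes stand apart, and library 24 (Gm13394 at 7.94) is the only point between the low and the high Gm13394 groups.

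The genes that followed each tag lay near the parent genes. The 20 genes with the largest main-effect t statistic of Gm13394, in either direction, were listed. Of these, 3 are the tag itself or share sequence with it, and 15 of the other 17 lie on chromosome 6 between 120.9 and 146.6 Mb. The same count for Eno1b was 11 of 16 on chromosome 4, between 133.3 and 155.9 Mb. There 4 genes, the tag and those that share sequence with it, were left out. The complement genes C1s2 and C1rb, next to Gapdh, separated the Gm13394 classes without overlap, and in library 24 they stood at 0.328 and 0.590, above the highest value of the other 17 low libraries (0.160 and 0.459) and far below the lowest of the high ones (4.67 and 5.88). Gapdh itself was lower where Gm13394 was high (-0.43 on the log2 scale), and Eno1 was lower where Eno1b was high (-0.30). The tags therefore marked the far part of each chromosome, and other parts were followed only as far as recombination left them linked.

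The depth of the libraries ran from 9430126 to 24355042 reads counted on 12180 genes, with a median of 10791083. The libraries numbered 1 to 30 and those numbered 31 to 59 form 2 sets of 28 and 22. The 11, 18, 7 and 14 libraries of the 4 classes split between these sets as 5 and 6, 10 and 8, 5 and 2, and 8 and 6, so that the class with only Eno1b high rests on libraries 35 and 44 in the later set. All 12 hepatocyte markers looked for were present, with a mean of 76224 for Alb, the serum albumin gene.

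The interaction term was then fitted in every gene. limma fitted log2(value + 0.5) on both tags and their product for each of 11431 genes, namely those whose mean over the libraries was 1 or more. The coefficient of the product is the Eno1b difference among libraries with high Gm13394 minus the Eno1b difference among libraries with low Gm13394, so that 1 means a 2-fold change in the Eno1b effect. No gene passed a Benjamini-Hochberg adjusted p of 0.05 in limma (0 of 11431, 0% called), and the smallest adjusted p was 0.947. At an unadjusted p under 0.05 there were 488 genes, 4.27% of those tested, of which 278 had a positive and 210 a negative coefficient. edgeR's quasi-likelihood test on the recovered whole reads also called 0 genes and gave 458 at an unadjusted p under 0.05.

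Permutation gave the background for this count. Residuals of the additive model were exchanged between libraries 100 times, with both main effects kept and the order the same for all genes. The permuted counts at an unadjusted p under 0.05 ran from 118 to 1769 with a median of 510, and 54 of 100 reached the observed 488 (permutation p = 0.545). Exchanging the class labels of the libraries gave 115 to 2190 genes, median 461, with 49 of 100 at or above 488 (permutation p = 0.495). The smallest p of the data, 0.000873 in Zfp952, was matched or beaten in 92 of 100 residual permutations, and 1 of them gave any call after adjustment. The wide span of the permuted counts, from 118 to 1769, shows how far a count of this kind moves when genes vary together across libraries.

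Other choices of libraries moved the count. Without library 24, the one nearest the Gm13394 threshold, 842 genes (7.37%) had an unadjusted p under 0.05, against permuted counts of 115 to 1519 with a median of 459.5. Here 14 of 100 permutations reached the observed count (permutation p = 0.149), and 0 genes were called after adjustment (limma, smallest adjusted p 0.668). Within the libraries numbered 1 to 30, 2.48% of the genes had an unadjusted p under 0.05 and 0 were called, and 84 of 100 permutations within that set reached that share.

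Among the 22 libraries numbered 31 to 59 the result was different. There limma called 120 genes after adjustment (62 positive, 58 negative, smallest adjusted p 0.0319), and 2333 (20.4%) had an unadjusted p under 0.05, which 0 of 100 permutations reached (range 47 to 1586, permutation p = 0.0099, the smallest that 100 draws can give). This set holds only libraries 35 and 44 with Eno1b alone high. Without library 44 the fit called 1 gene, with 937 at an unadjusted p under 0.05, and without library 35 it called 1084, with 3026. In either case the remaining single library of the class is assumed to vary like the others. Of the 120 genes, 47 had the same sign of coefficient in the libraries numbered 1 to 30, and 0 had an unadjusted p under 0.05 there.

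The genes leading this set showed where libraries 44 and 35 stood. In library 44 Atrx, a chromatin remodeller, had a value of 12.8, the lowest of all 50, against 18.9 to 37.6 in the other 49. Nrip1, a nuclear receptor co-repressor, was lowest of 50 as well, at 5.32 against 6.19 to 17.01. In the opposite direction, Dpm3, a subunit of dolichol-phosphate mannose synthase, was highest of 50 at 15.5 against 6.50 to 13.3, and Ndufb9, a subunit of respiratory complex I, was highest at 58.7 against 27.4 to 50.04. Library 35 lay toward the same end in each, at 21.99 (Atrx), 6.42 (Nrip1), 12.7 (Dpm3) and 47.3 (Ndufb9). The medians of the 49 libraries other than 44 were 30.8, 10.5, 9.05 and 33.5. These genes were among the first 3 of each sign by p in the later set, and their coefficients over all 50 libraries were 0.30 (Atrx), 0.54 (Nrip1), -0.32 (Dpm3) and -0.20 (Ndufb9). They were picked after their values were seen. Over all libraries, the count without library 44 was 345 at an unadjusted p under 0.05, the lowest of the 50 counts with 1 library left out, and that without library 24 was the highest.

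**Figure D2:**
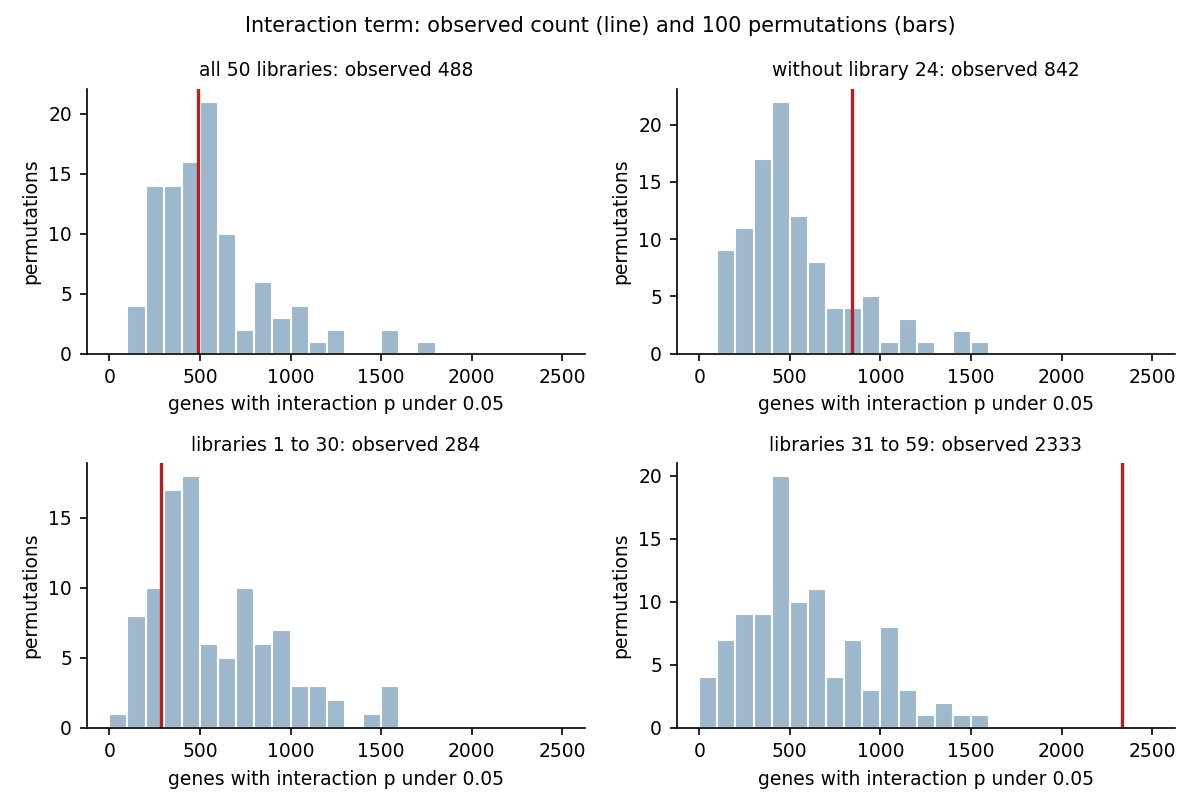
Genes with an interaction p under 0.05 (x axis, unadjusted) in 100 residual permutations (bars, number of permutations) and in the data (line), for all 50 libraries, without library 24, and within each set of library numbers. The observed 488 lies inside the permuted range of 118 to 1769, while 2333 in libraries 31 to 59 lies beyond the highest permuted count of 1586.

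The precision of the fit limits what could have been called. The median standard error of the coefficient was 0.134, which gives a median 95% interval of ±0.269 on the log2 scale. In 97.4% of the genes the whole interval lay within ±1, that is, within a 2-fold change of the effect. For a gene of median error to pass adjustment as the only interaction in the table, its coefficient had to reach 0.690 (p of 4.37e-06). A gene of smaller error needed a smaller coefficient, since the standard error was 0.0853 at the 10th percentile of the genes and 0.223 at the 90th.

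The 5 genes examined by the study were described class by class, in the order of the regulators of small GTPases, a transcription regulator, a methyltransferase and a protease. The study placed these genes among the most significant of the interactions it mapped in livers of this cross. It scanned pairs of markers along both chromosomes and reported the strongest, whereas a fixed pair of tags was used here. Whether these tags follow the loci that the study reported for these genes was not tested. A large p at the tags is therefore no test of the interactions that the study mapped. The data are the same, so a small p in any of these genes is not independent support. Arhgap25 encodes a GTPase-activating protein for Rac that is mainly known from leukocytes, and it lies on chromosome 6 (chr6:87458545-87533259, minus strand), away from the Gm13394 parent. Its values ran from 1.98 to 3.85 with both tags low (median 2.35) and from 1.603 to 3.17 with only Gm13394 high (median 2.03). In the 7 libraries with only Eno1b high they were 1.51, 1.68, 1.85, 1.87, 1.96, 2.78 and 3.48, and with both tags high they ran from 1.61 to 3.06 (median 2.54). All 4 classes overlapped, and the medians were higher in the classes where both tags were alike than in those where they differed. The highest value of the class of 7 belonged to library 24.

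The Eno1b difference in Arhgap25 was -0.21 ± 0.119 (SE, log2) among libraries with low Gm13394 and 0.17 ± 0.088 among those with high Gm13394. The interaction coefficient was 0.37 ± 0.148 (95% interval 0.076 to 0.672), with an unadjusted limma p of 0.0148, a permutation p of 0.0166 over 100000 permutations and a limma adjusted p of 0.947. It ranked 116 of 11431 genes, and the product term took 11.9% of the variance that the main effects left. Without library 24 the unadjusted p was 0.00159 with an adjusted p of 0.668, and without library 3 the unadjusted p was 0.043. Libraries 22 and 55 held the highest values with only Gm13394 high, 3.17 and 2.97, and carry the same animal number. Both entered as separate libraries. With libraries of shared animal numbers left out, the coefficient was 0.427 with an unadjusted limma p of 0.00468, and no gene was called. Within the library sets the coefficients were 0.35 (1 to 30) and 0.41 (31 to 59). Between 18 and 73 reads per library lay behind these values, and counting error came to 60.6% of the variance within classes.

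Rasa3, a GTPase-activating protein for Ras and Rap, had values of 6.81 to 11.7 with both tags low (median 9.07) and 5.92 to 13.3 with only Gm13394 high (median 8.34). With only Eno1b high they lay between 6.61 and 10.5 (median 7.99), and with both high between 6.33 and 13.5 (median 9.05). Its classes overlapped throughout, in the same order of medians for like and unlike tags as in Arhgap25. The coefficient was 0.24 ± 0.155 (95% interval -0.071 to 0.553), with a permutation p of 0.134. It did not pass any threshold, and its interval leaves room for a coefficient as large as that of Arhgap25.

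Irf2bpl encodes a transcription regulator related to the partners of interferon regulatory factor 2. It ranged from 10.4 to 22.6 with both tags low (median 13.6), 7.25 to 18.995 with only Gm13394 high (median 12.6), 8.92 to 19.8 with only Eno1b high (median 12.9) and 8.65 to 21.5 with both high (median 12.98). The spread inside each class was wider than any distance between the medians. The coefficient was 0.17 ± 0.214 (95% interval -0.257 to 0.605, permutation p = 0.434), and it ran from 0.085 without library 25 to 0.27 without library 12.

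Gnmt, the glycine N-methyltransferase that consumes S-adenosylmethionine, was the most abundant of the 5. Values lay between 1138 and 1903 with both tags low (median 1455), 991 and 2154 with only Gm13394 high (median 1370), 1372 and 2038 with only Eno1b high (median 1546), and 1205 and 2127 with both high (median 1440). Overlap between the classes was nearly complete. The coefficient was -0.033 ± 0.139 (95% interval -0.313 to 0.246, permutation p = 0.813), and it changed sign with the libraries that entered. Counting error was 0.159% of its variance within classes, so the spread lay between libraries and not in the reads.

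Capn10, an atypical calpain protease, ranged from 13.2 to 21.2 with both tags low (median 17.01), 13.9 to 25.7 with only Gm13394 high (median 15.97), 15.01 to 19.8 with only Eno1b high (median 16.01) and 12.1 to 21.8 with both high (median 15.03). The coefficient was -0.082 ± 0.128 (95% interval -0.338 to 0.175, permutation p = 0.532). It was 0.076 within libraries 1 to 30 and -0.36 within libraries 31 to 59 (limma p = 0.0687, adjusted p = 0.281), and -0.042 without library 44. The differences between classes were small beside the spread within them. For Gnmt and Capn10 both bounds of the interval lie nearer to 0 than the estimate of Arhgap25.

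**Figure D3:**
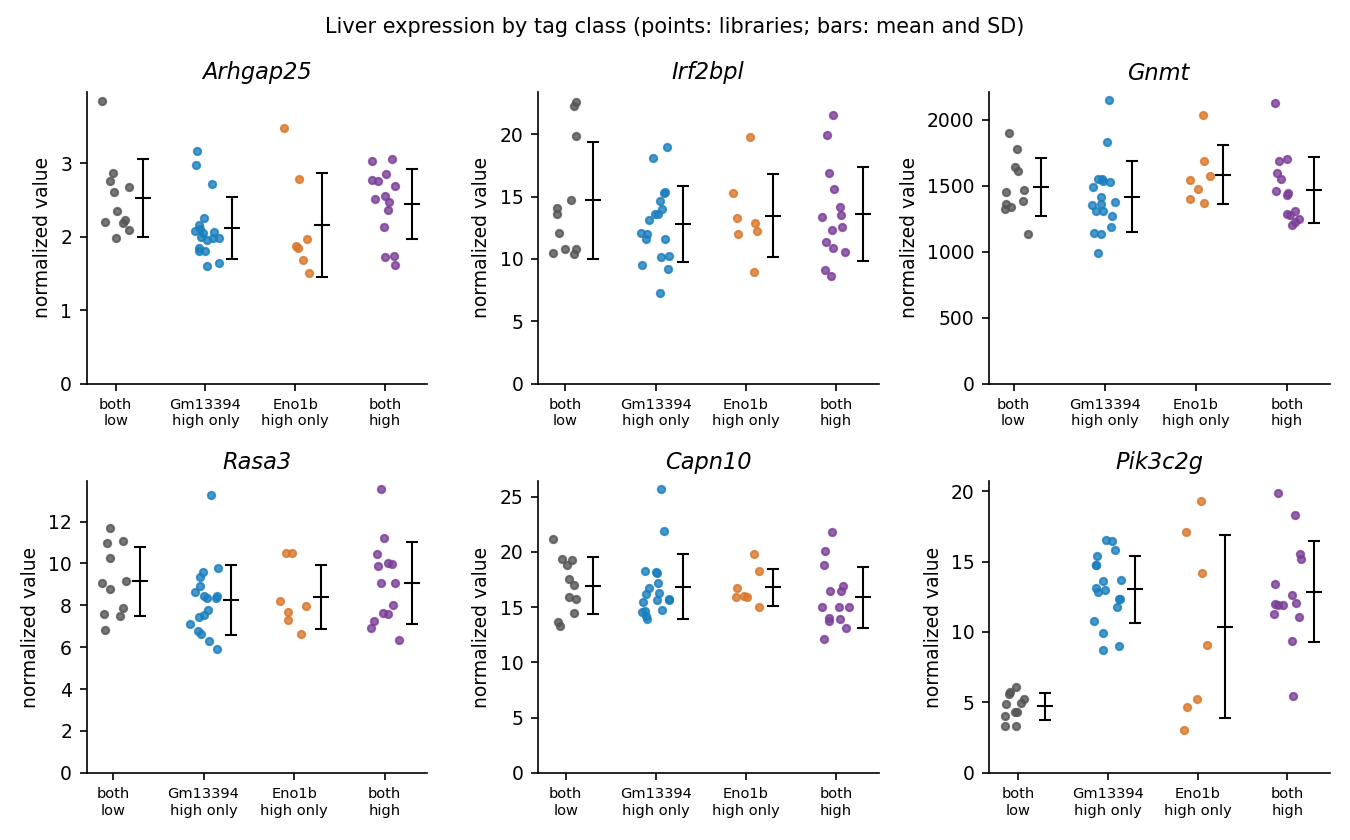
Normalized values (y axis, from 0) of the 5 genes examined by the study and of Pik3c2g in each library (points) by tag class (x axis), with mean and SD. The classes overlap in the 5 genes, while Pik3c2g is low in all 11 libraries with both tags low and divided in the 7 libraries with only Eno1b high.

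The genes of each sign with the smallest p were read next, 10 positive and 9 negative. None was called, and their unadjusted p lay between 0.000873 and 0.00313. On the positive side stood Zfp952 (a zinc-finger protein), Ifngr1 (the ligand-binding chain of the interferon gamma receptor), Matr3, Cd84 (a leukocyte surface receptor), Itga9 (an integrin chain), P2ry12 (an ADP receptor), Tatdn1, Wdr37, Ntn1 (the guidance factor netrin) and Zup1. Their coefficients ran from 0.27 in Matr3 to 0.61 in P2ry12. Zfp952 ran from 2.41 to 4.40 with both tags low (median 3.56), 2.28 to 4.13 with only Gm13394 high (median 3.28), 2.43 to 3.44 with only Eno1b high (median 2.97) and 3.12 to 4.24 with both high (median 3.56). The class of 7 was the lowest by median and the ranges of all classes overlapped. Its coefficient was 0.41 ± 0.116, and counting error made up 90.6% of its variance within classes, with 30 to 117 reads per library.

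Ifngr1 and Matr3 had more reads behind them. Ifngr1 had medians of 17.6, 15.5, 14.3 and 16.6 in the order of both low, only Gm13394 high, only Eno1b high and both high, and a coefficient of 0.33 ± 0.095. Matr3, an RNA-binding protein of the nuclear matrix, had medians of 51.3, 45.2, 40.9 and 46.9 and a coefficient of 0.27 ± 0.081. In both, as in Zfp952, libraries with a single high tag had lower medians than libraries with none or both, by less than the ranges of the classes. Selection on a positive product term favours this shape, so its recurrence is not separate support.

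The negative side held Thnsl2 (a threonine synthase-like enzyme), Eri3 (an exoribonuclease), Morn1, Pik3c2g, Klhl22, Cxxc1 (a protein that binds unmethylated CpG), Rnf187, Txnrd2 (the mitochondrial thioredoxin reductase) and Parp3. Coefficients ran from -0.88 in Pik3c2g to -0.21 in Rnf187. Thnsl2 and Pik3c2g lie on chromosome 6 and Eri3 and Morn1 on chromosome 4, the only ones of these 19 genes on either chromosome. Thnsl2 had medians of 30.5, 32.4, 34.2 and 30.9 in the same class order and a coefficient of -0.29 ± 0.084, with ranges of 28.2 to 33.5 and 29.6 to 42.1 in the classes with low Gm13394 that overlapped. Morn1 was between 1.55 and 2.60 with both tags low and between 2.67 and 3.21 with only Eno1b high, which did not overlap. However, it rested on 19 to 80 reads and its counting error was 92.3% of the variance within classes.

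**Figure D4:**
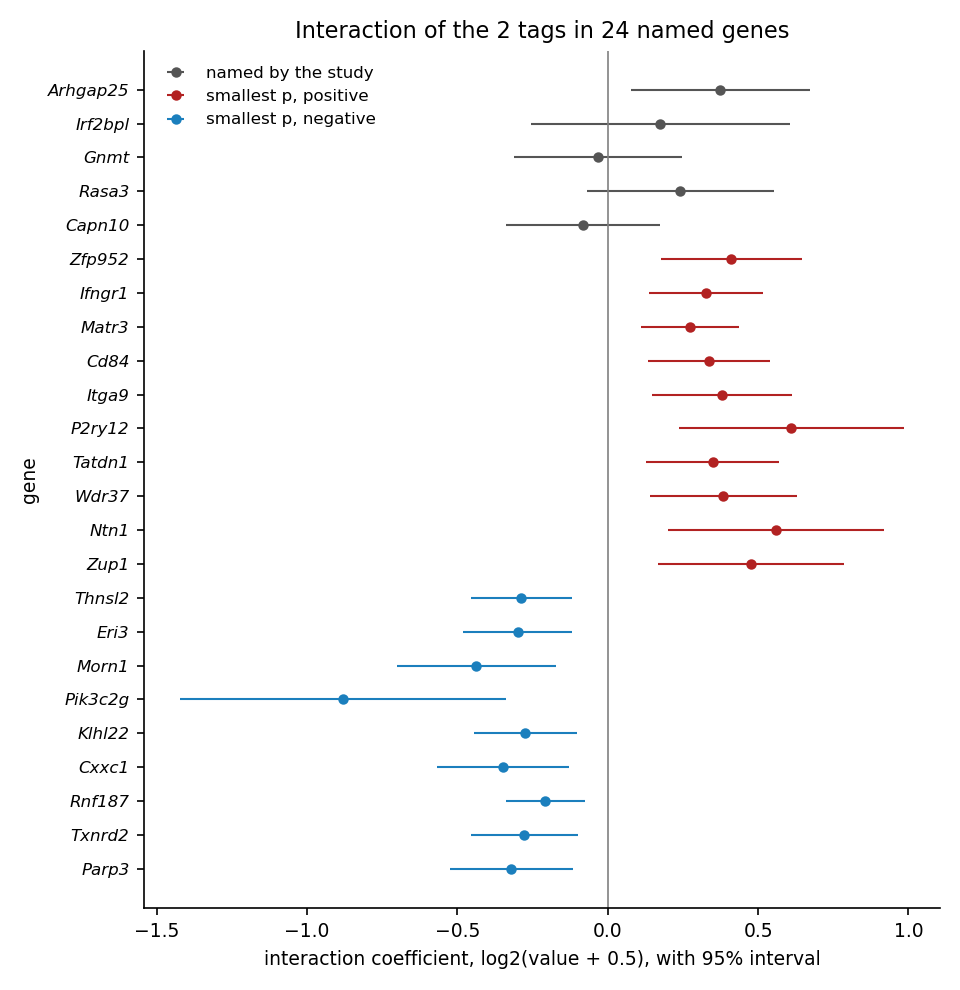
Interaction coefficients on the log2(value + 0.5) scale (x axis) with 95% intervals for the 5 genes examined by the study and for 10 positive and 9 negative genes among those with the smallest unadjusted p. Arhgap25 is the only one of the 5 whose interval leaves out 0, and the widest interval belongs to Pik3c2g at -0.88; no gene shown was called after adjustment.

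Pik3c2g, a class II phosphoinositide 3-kinase expressed in liver, had the largest coefficient of the named genes and is also among the 20 genes that follow Gm13394. It lies 14.4 Mb from Gapdh on the same chromosome (chr6:139587221-139969284). In the 11 libraries with both tags low its values ran from 3.29 to 6.12, and in the 18 with only Gm13394 high from 8.71 to 16.5, with no overlap. The 7 libraries with only Eno1b high were divided, with 3.05, 4.69 and 5.21 in libraries 35, 3 and 12, and 9.08, 14.2, 17.1 and 19.3 in libraries 44, 25, 24 and 29. Of the 14 with both tags high, 13 lay between 9.33 and 19.9 and library 17 stood at 5.49.

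Thus 4 of the 7 libraries carried Pik3c2g at the level of the high Gm13394 class while their Gm13394, C1s2 and C1rb were low, and library 17 showed the reverse. Gprc5a, a receptor gene between Gapdh and Pik3c2g (chr6:135065651-135084709) that was looked at after these values were seen, was at 0 to 0.308 with both tags low. In the class of 7 it stood at 0.900 in library 44, 0.367 in library 25 and at most 0.080 in the others, and in library 17 it was 0.291 against 0.814 to 3.15 in the other libraries with both tags high. The coefficient of Pik3c2g was -0.88 ± 0.270 (95% interval -1.42 to -0.34, limma p = 0.00204, adjusted p = 0.947). Genotypes between the tag and Pik3c2g were not used, and the part of recombination in this coefficient was not tested.

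Genes on the segregating chromosomes did not stand apart in number. On chromosome 4, 25 of 729 genes (3.43%) had an unadjusted p under 0.05, and on chromosome 6 it was 27 of 575 (4.70%). Together these were 52 of 1304 (3.99%), against 436 of 10127 (4.31%) on the other chromosomes and 4.27% of all genes. The permuted counts for the pair ran from 9 to 203 with a median of 54, and 54 of 100 reached 52.

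The sign of the Eno1b difference in either Gm13394 class was compared as a description of shape. Across all genes it differed between the Gm13394 classes in 41.1%, and among the 488 in 85.04%. The latter share is largely set by the selection on the product term, since the difference and the coefficient share the class means, and it is not evidence of crossing effects. The product term took at most 22.1% of the variance left by the main effects in any gene, and a median of 1.10%.

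Gene lists built around the 5 genes were counted beside all genes. There the median coefficient was -0.0041, 48.7% were positive and 4.27% had an unadjusted p under 0.05. No member of any list was called after adjustment. In methyl-group metabolism, the pathway that makes and spends S-adenosylmethionine, 13 of 24 coefficients were positive, the median was 0.012 and 0 members had an unadjusted p under 0.05. Its lead was Pipox, which oxidizes sarcosine, at -0.16 (p = 0.0614), and the abundant enzymes Mat1a (0.16, p = 0.365), Bhmt (0.20, p = 0.584) and Ahcy (0.037, p = 0.731) also lay within their error. Of 35 genes of glucose production and glycolysis, 26 were negative (median -0.074) and 2 had an unadjusted p under 0.05, Pfkp, the platelet type phosphofructokinase, at 0.66 (p = 0.0084) and Pck1, which catalyses an early step of gluconeogenesis, at -0.32 (p = 0.0422).

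The lists of Ras regulators and of calpains leaned in opposite directions. All 9 Ras GTPase-activating proteins were positive (median 0.160, range 0.060 to 0.24), led by Rasa3, and none had an unadjusted p under 0.05. Of 10 genes of the calpain system 9 were negative (median -0.086), led by Capns1, the regulatory subunit, at -0.15 (p = 0.0917), which was -0.052 (p = 0.464) without library 44. Among 9 IRF2-binding proteins and partners 6 were negative (median -0.117), and Irf2bp1 (-0.32, p = 0.0376) and Irf3 (-0.21, p = 0.0412) had an unadjusted p under 0.05.

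Markers of cells other than hepatocytes leaned positive as well. Of 30 leukocyte and Kupffer cell markers, 11, among them the lymphocyte genes Cd3e, Cd8a and Ms4a1, were not in the table, and 17 passed the filter on the mean. Of these 17 leukocyte and Kupffer cell markers 14 were positive (median 0.206), with Ptprc, the pan-leukocyte phosphatase CD45, at 0.36 (p = 0.021) and Timd4, a receptor of resident Kupffer cells, at 0.30 (p = 0.0365). Of 20 endothelial, stellate and bile duct markers 17 were positive (median 0.253) and 6 had an unadjusted p under 0.05. These were Rgs5, Cdh5, Stab1, Pecam1, Dcn and Lyve1, from 0.21 to 0.52. Over all genes 48.7% were positive and 4.27% had an unadjusted p under 0.05. Members of a list may vary together across libraries, and no list was tested as a set. Hepatocyte markers had a median of -0.060 with 4 of 12 positive, and sex-dependent liver genes one of -0.080 with 6 of 17 positive. In the hepatocyte and sex-dependent lists no member reached an unadjusted p under 0.05.

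The summed level of the 19 leukocyte and Kupffer cell markers in the table ran from 356 to 518 with both tags low, 317 to 520 with only Gm13394 high, 322 to 489 with only Eno1b high and 373 to 597 with both high, with medians of 421, 406, 392 and 419. For the endothelial, stellate and bile duct markers the medians were 484, 462, 454 and 502, again lowest where a single tag was high. The summed hepatocyte markers had medians of 118020, 107510, 111030 and 115250, also lower in both classes with a single high tag. These sums overlapped between all classes. As in Arhgap25, a gene of leukocytes, the classes with a single high tag had the lower medians. In the sums this was not particular to cells other than hepatocytes. The part of leukocytes in the coefficient of Arhgap25 was not tested. In whole liver RNA, fewer cells of a type and less RNA per cell cannot be told apart.

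**Figure D5:**
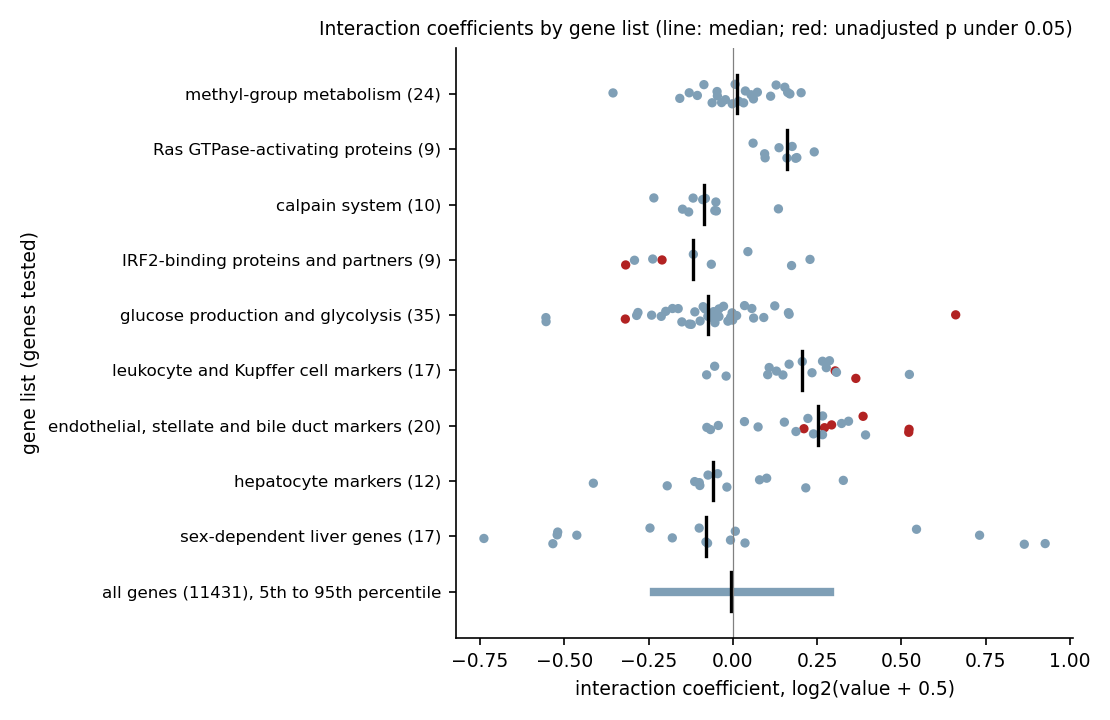
Interaction coefficients (x axis, log2 scale) of the members of 9 gene lists (y axis, number of genes tested), with the median as a black line, members of unadjusted p under 0.05 in red, and the 5th to 95th percentile of all 11431 genes as a bar. Leukocyte and endothelial lists have medians of 0.206 and 0.253, and all genes a median of -0.0041.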

How the data were processed

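The authors trimmed, aligned (HISAT2, GRCm38.p5) and counted the reads per gene (HTSeq 0.11.1), removed low-count genes and normalized with edgeR, per the labels and methods. The deposited table holds these values as a normalized signal, CPM of a scaled library size, for 50 libraries. Of its 12185 rows, 5 are HTSeq totals of unassigned reads and were left out of every test and depth. All values came out as whole reads within 0.01 of a read (100%). Library numbers are those of the titles. Classes, members and gene lists were chosen with earlier results of these data known.

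limma 3.58.1 in R 4.3.3 tested the product of the tags, 2-sided, on log2(value + 0.5), keeping genes whose mean was 1 or more, with Benjamini-Hochberg adjustment over all 11431 genes and a threshold of 0.05. edgeR 4.0.16 was run on the recovered reads. Null counts came from 100 permutations of additive-model residuals, and single genes had 100000. The scripts were tested on simulated data. Counting error is Poisson error only, since PCR copies are not independent molecules, and is given as a share of the variance within the 4 classes. Named genes were the tags and their parents, 5 genes examined by the study, the 10 smallest p of each sign among genes with a standard symbol, and the lead of each list. A few items that this rule names are not reported here. Alternatives covered the pseudocount, filter, scale, normalization, thresholds, covariates, shared animal numbers and leaving out each library. The settings by library set and the permutations without library 24 were chosen after seeing the data. Positions are from GENCODE M21, where 3 genes had none. No label says that the libraries come from separate animals beyond the animal numbers.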

Additional observations from a re-analysis of the deposited data

Results flagged for a closer look

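In 37 gene-by-class sets of 4 to 10 libraries, all of them the class of 7 with only Eno1b high, 5 held a library set apart from the others by Dixon's criterion (0.568 for 7 values). Chance flags about 1 in 20 such sets. Gm13394 was 7.94 in library 24, and the next value was 0.945. Because Gm13394 values chose the classes, this flag is a description and carries no test. In library 24 Pfkp was 3.08 (next 2.004) and Cux2, a transcription factor higher in female liver, was 6.50 (next 1.52). Neither was extreme among all libraries, since Pfkp reached 5.12 with both tags low and Cux2 12.5 with both tags high. Capns1 was 97.95 in library 44 (next 66.0), and Matr3 was 49.5 in library 29 (next 42.6).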

How the results depend on the processing

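No gene was called after adjustment in any of 15 alternatives or when any of the 50 libraries was left out. The share of genes at an unadjusted p under 0.05 was 6.68% with counted reads as a covariate and ran from 3.02% to 7.37% with 1 library left out. Chosen after seeing the data, libraries 1 to 30 gave 2.48%, and libraries 31 to 59 gave 20.4%, or 26.5% without library 35 and 8.20% without library 44. Calls in libraries 31 to 59 were 120, 1084 without library 35 and 1 without library 44. On chromosomes 4 and 6 the count was 34 at a mean of at least 5, 84 with counted reads as a covariate, 85 with continuous tag values, 37 to 95 with 1 library left out, and 247 in libraries 31 to 59 (312 without library 35, 109 without library 44). Of 100 permutations, 14 reached the observed count without library 24, 84 in libraries 1 to 30 and 0 in libraries 31 to 59. The cause of these shifts was not tested. Among 33 named genes, 4 of 2135 alternative values reversed, all in Gnmt, which was 0.056 with libraries of shared animal numbers left out and ran from -0.076 to 0.029 with 1 library left out. In libraries 1 to 30 Gnmt was 0.078 and Capn10 0.076, against -0.21 and -0.36 in libraries 31 to 59. For genes of few reads, such as Arhgap25, depth limits the precision.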
